A study of Caenorhabditis elegans with 6 samples.

Results

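The 48 genes described here run the cell cycle and DNA replication in the nematode *Caenorhabditis elegans*, out of 17118 genes read by the array. They are the genes whose array symbol begins with mcm, cyb, orc, rfc, psf or rpa and a number, and 22 further regulators chosen by name. The rule reads names and no measured value, but it was made with earlier results of these data known. Of the 48, 27 act in DNA replication, 5 in the passage from G1 into S phase, 11 in mitosis, and 5 are inhibitors or belong to the E2F and Rb system of transcriptional control.

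RNA came from whole worms at the last larval stage, L4, kept at 25 °C on OP50 bacteria after synchronization. The mutant, alg-1(gk214), written alg-1(-) in the labels, was read on 3 arrays, and so was N2, the laboratory wild type. ALG-1 is an Argonaute protein that binds microRNAs, and the series asked which genes it targets. The mutation was present in every tissue, no cells were sorted, and only 1 mutant allele was compared. All values are log2 signals of Affymetrix probe sets, the groups of probes that read a transcript.

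A dividing cell first loads the MCM helicase onto replication origins, which the origin recognition complex (ORC) marks. Cyclin-dependent kinases then start DNA synthesis and later mitosis, each kinase being switched on by a cyclin that is made and destroyed in every cycle. In an L4 worm dividing cells are found in the germline and in a few somatic lineages such as the vulva, the uterus and the seam, so whole-worm RNA mixes dividing with non-dividing tissue. In such RNA, fewer cells of a type and less RNA per cell cannot be told apart.

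The arrays correlated at 0.998 within the mutant group, at 0.994 to 0.996 within the wild type and at 0.968 to 0.976 between the groups. The alg-1 signal was 6.03 ± 0.11 in the mutant and 6.76 ± 0.10 in N2 (SD, n = 3), lower by 0.73 (SE 0.085, limma adjusted p = 0.000245), and the place of its probes relative to the deletion is unknown here. Wild type replicate 3 stood apart in the 3′ minus 5′ difference of the GAPDH control, which was −0.58 log2 there and −0.23 to −0.14 on the other arrays. Markers of the somatic tissues were read in both groups, and their median signal lay at the 87.9th percentile of all probe sets for body wall muscle, the 90.4th for intestine and the 75.4th for neurons.

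Most of the cell cycle genes differed little between the genotypes. Of the 48, 7 rose and 9 fell in the mutant, and 32 did not pass the threshold (limma with Benjamini-Hochberg adjustment over all 22548 probe sets, adjusted p under 0.05). Over all genes 14.4% were called higher and 20.1% lower, so the members' 14.6% and 18.8% lay near the background. In either direction 33.3% of the members were called, beside 34.6% of all genes and 33.7% of all probe sets. Their median change was −0.01 log2, against −0.06 for all genes. The largest change among them, each gene read from its probe set of highest signal, was 1.54-fold, while 880 of the 17118 genes passed with 2-fold or more. The signal of 42 of the 48 genes lay above the median of expression. Of all genes above that median, 22.2% were called higher and 26.9% lower, against 16.7% and 21.4% of these 42.

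The groups did not overlap for 22 members, 14 lower and 8 higher in the mutant. Those were 29.2% and 16.7% of the members, beside 29.6% and 19.1% of all genes. Centring the arrays on their bacterial hybridization controls moved the median change of all probe sets from −0.05 to 0.08 log2. With that centring 12 members were called higher and 3 lower, where 20.9% of all genes were higher and 10.6% lower. All 7 risers stayed called under it, and cdk-4, pcn-1, plk-1, rfc-3 and rfc-4 were added to them. Of the 9 genes that fell, cdc-25.1, cyb-2.1 and cyb-2.2 did, and the other 6 kept a negative difference without passing.

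**Figure D1:**
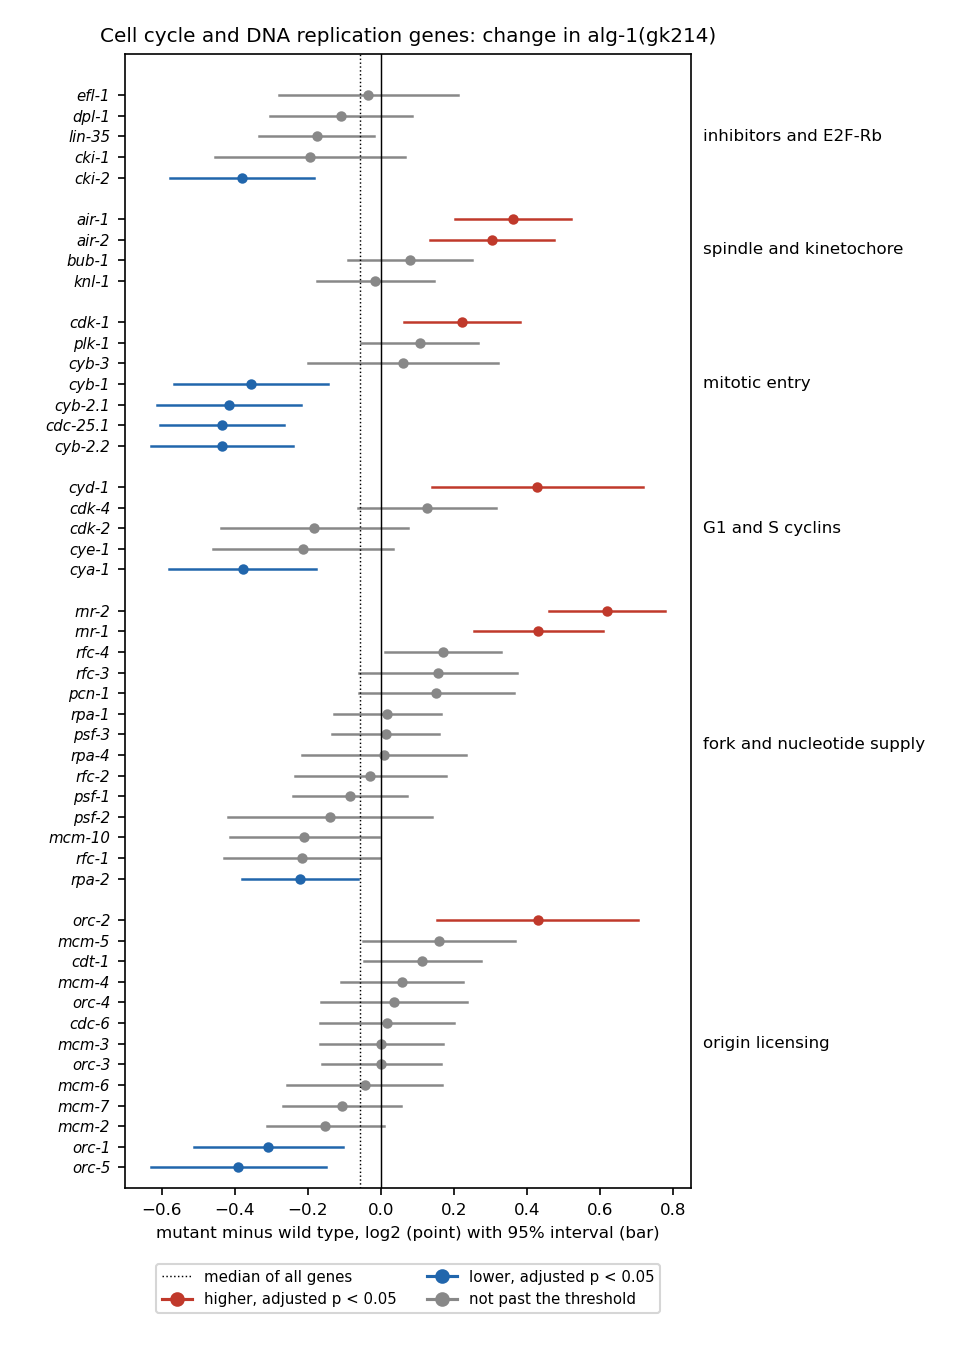
Change of each of the 48 genes on the log2 scale, mutant minus wild type, with its 95% interval (3 arrays per genotype), grouped by role. Red points were called higher, blue points lower and grey points did not pass; the dotted line is the median of all genes. The changes run from −0.44 to 0.62. Of the 7 mitotic entry genes 4 were called lower, beside 20.1% of all genes. Of the 4 spindle genes 2 were called higher, beside 14.4% of all genes. Above the median of expression, where all the mitotic entry and spindle genes lay, 26.9% of genes were called lower and 22.2% higher.

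Origin licensing genes were nearly level, apart from 3 subunits of ORC. Of 13 measured, 1 rose and 2 fell (7.7% and 15.4%, beside 14.4% and 20.1% of all genes), with a median of 0.00 log2. The largest subunit gene, orc-1, read 6.43, 6.35 and 6.25 in the mutant and 6.50, 6.76 and 6.71 in N2. All mutant values lay below all wild type values, and the gene fell by 0.31 (SE 0.090, adjusted p = 0.0271). The orc-5 gene read 7.54, 7.57 and 7.42 in the mutant against 7.74, 7.83 and 8.13, and fell by 0.39 (SE 0.11, adjusted p = 0.0201). Its wild type values were spread more widely than its mutant values, with replicate 3 the highest.

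In the other direction, orc-2 rose. Its values were 7.99, 7.89 and 7.90 in the mutant and 7.54, 7.73 and 7.22 in N2, a change of 0.43 (SE 0.12, adjusted p = 0.0239). The 3 mutant arrays agreed closely and the wild type arrays were scattered, with replicate 3 the lowest. The remaining subunits, orc-3 and orc-4, differed by 0.00 (95% interval −0.16 to 0.16) and 0.03 (−0.17 to 0.24), and orc-3 was dim, at the 36.3rd percentile of expression.

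None of these ORC calls held in every fit that left out 1 array. Without mutant replicate 3, adjusted p was 0.109 for orc-1, 0.0840 for orc-5 and 0.0672 for orc-2. Without mutant replicate 1 it was 0.0567 for orc-5 and 0.0879 for orc-2, and without mutant replicate 2 it was 0.0735 for orc-1 and 0.0579 for orc-2. Without wild type replicates 2 and 3 in turn, orc-1 gave 0.0863 and 0.0646. The orc-1 and orc-4 genes are direct neighbours on their chromosome by the order of protein-coding genes in RefSeq's WBcel235 table, yet orc-1 fell and orc-4 differed by 0.03. The difference between these changes was not tested.

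None of the 7 mcm genes passed in limma, where 1 of them had an unadjusted p under 0.05. MCM-2 to MCM-7 form the ring that unwinds DNA at the fork, and MCM-10 helps to activate it. For mcm-2 the mutant arrays read 8.05, 8.20 and 8.14 and the wild type arrays 8.31, 8.26 and 8.26. These groups did not overlap, yet the difference of −0.15 did not pass (95% interval −0.31 to 0.01, adjusted p = 0.131).

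The other ring subunits differed by 0.16 for mcm-5, 0.06 for mcm-4, 0.00 for mcm-3, −0.04 for mcm-6 and −0.11 for mcm-7. Their 95% intervals ranged from −0.27 at the lowest to 0.37 at the highest. The mcm-10 gene differed by −0.21 (95% interval −0.41 to −0.01), with adjusted p = 0.106 after the adjustment over all probe sets. The loaders of the ring, cdc-6 and cdt-1, differed by 0.02 (−0.17 to 0.20) and 0.11 (−0.05 to 0.27).

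Of the 14 fork and nucleotide supply genes, 2 rose, both of ribonucleotide reductase, and 1 fell. Those were 14.3% and 7.1%, beside 14.4% and 20.1% of all genes. Ribonucleotide reductase makes the deoxynucleotides from which DNA is built, and rnr-1 encodes its large and rnr-2 its small subunit. The rnr-2 signal was 9.79, 9.82 and 9.77 in the mutant and 9.16, 9.26 and 9.11 in N2. Every mutant array read above every wild type array, and the rise of 0.62 (SE 0.071, adjusted p = 0.000231), or 1.54-fold, was the largest change among the probe sets of highest signal of the 48 genes.

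The rnr-1 signal was 9.89, 9.85 and 9.74 against 9.36, 9.34 and 9.50, again without overlap. It rose by 0.43 (SE 0.078, adjusted p = 0.00279), or 1.35-fold. Both genes stayed called in every fit that read them at the threshold of 0.05. Each was read from its only probe set, which ends in _s_at (Affymetrix's mark for probes that match several transcripts), so fits without such probe sets did not read them.

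The fork proteins themselves differed less. RPA, which coats single-stranded DNA, had 1 subunit gene that fell: rpa-2 read 9.59, 9.69 and 9.60 in the mutant and 9.90, 9.86 and 9.79 in N2. That fall of 0.22 (SE 0.070, adjusted p = 0.0377) was small, and the groups did not overlap. The rpa-2 call was lost in 5 of the 6 fits without 1 array (adjusted p 0.0608 to 0.128), and held without wild type replicate 3 (adjusted p = 0.0282). It was also lost with replicate number as a block (adjusted p = 0.0550) and with median centring (adjusted p = 0.0527). The other RPA genes, rpa-1 and rpa-4, differed by 0.02 (−0.13 to 0.17) and 0.01 (−0.22 to 0.23).

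Of the clamp loader genes, rfc-4 read 9.47, 9.46 and 9.50 in the mutant against 9.33, 9.37 and 9.22. These groups were separate, but the difference of 0.17 did not pass (adjusted p = 0.0953). The differences of rfc-3 and of pcn-1, which encodes the sliding clamp PCNA, were 0.16 and 0.15, while rfc-1 differed by −0.22 and rfc-2 by −0.03. Without wild type replicate 3, rfc-3 (0.26, adjusted p = 0.0193) and pcn-1 (0.25, adjusted p = 0.0346) passed as higher. Without wild type replicate 1, rfc-1 passed as lower (−0.29, adjusted p = 0.0340). The psf genes, which encode 3 subunits of the GINS complex of the active helicase, differed by −0.14 to 0.01, and none passed in limma (0 with an unadjusted p under 0.05).

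Among the G1 and S phase genes the cyclin D gene cyd-1 rose and the cyclin A gene cya-1 fell. CYD-1 and its kinase CDK-4 drive cells through G1. The main cyd-1 probe set read 7.81, 7.63 and 7.91 in the mutant and 7.18, 7.26 and 7.64 in N2, where replicate 3 reached the lowest mutant value. It rose by 0.43 (SE 0.13, adjusted p = 0.0295).

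A second cyd-1 probe set of lower signal read 6.92, 6.74 and 6.74 against 5.93, 5.72 and 5.44. There the groups were far apart, and the rise was 1.104 (SE 0.12, adjusted p = 0.000198), or 2.15-fold. The call of the main probe set was lost without mutant replicates 1 and 3 (adjusted p = 0.0943 and 0.115) and without wild type replicates 1 and 2 (adjusted p = 0.0698 and 0.0873). The cdk-4 gene, at only the 13.7th percentile of expression, differed by 0.13 (−0.06 to 0.32).

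The cya-1 gene, whose cyclin acts in S phase and early mitosis, read 7.22, 7.43 and 7.36 in the mutant and 7.62, 7.85 and 7.68 in N2. The groups were separate, and it fell by 0.38 (SE 0.089, adjusted p = 0.0104). Its second probe set differed by −0.23 and did not pass (adjusted p = 0.0514). The cyclin E gene cye-1 and its kinase gene cdk-2, which start DNA synthesis, overlapped between the groups.

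For cye-1 the arrays read 5.32, 5.45 and 5.45 in the mutant and 5.58, 5.43 and 5.85 in N2, a difference of −0.21 (−0.46 to 0.03). For cdk-2 they read 5.07, 5.34 and 5.45 against 5.37, 5.63 and 5.42, a difference of −0.18 (−0.44 to 0.07). Both genes lay below the median of expression, at percentiles 43.3 and 41.4.

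Mitotic entry genes included the clearest falls. Of 7, 4 fell and 1 rose, with a median of −0.36 log2. Over all genes 20.1% were called lower and 14.4% higher. Of those above the median of expression, where all 7 lay, it was 26.9% and 22.2%. The phosphatase gene cdc-25.1, which removes inhibitory phosphates from CDK and is known in the worm for germline proliferation, read 7.62, 7.56 and 7.48 in the mutant and 7.94, 8.07 and 7.95 in N2. The groups were well separated and the fall was 0.44 (SE 0.075, adjusted p = 0.00216). Its second probe set fell by 0.39 (adjusted p = 0.0217).

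The B-type cyclins, which activate CDK-1 for mitosis, were not all called. The cyb-2.2 gene read 6.90, 7.03 and 6.996 in the mutant against 7.32, 7.35 and 7.56 and fell by 0.44 (SE 0.086, adjusted p = 0.00453). For cyb-2.1 the values were 6.72, 6.82 and 6.59 against 7.23, 7.03 and 7.12, a fall of 0.42 (SE 0.087, adjusted p = 0.00590). Neither gene's groups overlapped, but both come from _x_at probe sets, whose probes may match related transcripts, so these may not be separate measurements.

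The cyb-1 gene had 3 probe sets that differed in their calls. The brightest, also an _x_at set, read 8.15, 8.22 and 8.03 in the mutant and 8.63, 8.50 and 8.33 in N2 and fell by 0.36 (SE 0.093, adjusted p = 0.0172). The _s_at set fell by 0.48 (adjusted p = 0.00167), and the set with neither ending differed by −0.11 (adjusted p = 0.312). Without mutant replicates 1 and 3 the brightest set gave adjusted p = 0.0541 and 0.0764.

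By contrast cyb-3, at 10.42 ± 0.04 in the mutant and 10.36 ± 0.24 in N2 (SD, n = 3), differed by 0.06 (−0.20 to 0.32). Its 95% interval did not reach the fall of 0.36 read for cyb-1, but it overlapped the interval of that fall (−0.57 to −0.14). The difference between the cyclin genes was not itself tested. The direct neighbour of cyb-1 on the chromosome is orc-5, whose main probe set fell by 0.39. Its second probe set, dim at the 43.5th percentile, differed by 0.07 (adjusted p = 0.737), and the mean of both did not pass (−0.16, adjusted p = 0.103).

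The kinase gene cdk-1, the partner of the B cyclins, was higher. It read 9.07, 9.03 and 8.96 in the mutant against 8.86, 8.78 and 8.75, without overlap. The rise of 0.22 (SE 0.070, adjusted p = 0.0376) was small and was called without wild type replicate 1 (adjusted p = 0.0319), but not without any of the other 5 arrays (adjusted p 0.0644 to 0.136). With quantile normalization adjusted p was 0.0764. The Polo-like kinase gene plk-1, which acts in mitotic entry and at the spindle, differed by 0.11 (−0.05 to 0.27).

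Both Aurora kinase genes rose. AIR-1 is the Aurora A kinase of centrosomes and spindle, and AIR-2 the Aurora B kinase of the chromosomal passenger complex. For air-1 the mutant arrays read 9.56, 9.58 and 9.45 and the wild type arrays 9.20, 9.15 and 9.15, a rise of 0.36 (SE 0.070, adjusted p = 0.00401). The air-2 gene read 7.59, 7.79 and 7.70 against 7.42, 7.36 and 7.38, a rise of 0.30 (SE 0.075, adjusted p = 0.0128).

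In both cases the wild type arrays lay tightly together below every mutant array. The air-1 call held in every fit that read its probe set, and the air-2 call was lost without mutant replicates 2 and 3 (adjusted p = 0.0572 and 0.0503). The checkpoint kinase gene bub-1 read 8.12, 8.11 and 8.23 in the mutant against 8.13, 8.11 and 7.99. The kinetochore scaffold gene knl-1 read 8.72, 8.62 and 8.65 against 8.73, 8.69 and 8.61. Both overlapped and differed by 0.08 (−0.09 to 0.25) and −0.02 (−0.18 to 0.14).

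The brakes on the cycle, with the E2F and Rb genes, gave 1 fall among 5, beside 20.1% of all genes called lower. The cki genes encode inhibitors of cyclin-dependent kinases of the CIP/KIP family, and cki-1 holds larval precursor cells in G1. The cki-2 gene read 7.15, 7.26 and 7.16 in the mutant and 7.45, 7.72 and 7.53 in N2. The groups were separate, and it fell by 0.38 (SE 0.087, adjusted p = 0.00913). Its second probe set fell by 0.23 (adjusted p = 0.0350).

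Its direct neighbour cki-1 read 8.16, 7.94 and 8.11 against 8.41, 8.37 and 8.02, where wild type replicate 3 fell among the mutant values. The difference of −0.19 (−0.45 to 0.07) did not pass. Without wild type replicate 3 it was −0.32 (adjusted p = 0.0256), and with the mean of its probe sets it was −0.24 (adjusted p = 0.0143), so cki-1 passed in both of these.

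LIN-35, the worm Rb protein, represses cell cycle genes together with EFL-1 (E2F) and DPL-1 (DP). The lin-35 arrays read 7.30, 7.33 and 7.40 in the mutant and 7.58, 7.52 and 7.46 in N2. Although separate, they differed by only −0.18 (adjusted p = 0.0837), and with quantile normalization lin-35 passed (−0.21, adjusted p = 0.0458). A second lin-35 probe set differed by 0.04 (adjusted p = 0.738).

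The dpl-1 arrays read 7.41, 7.39 and 7.31 against 7.42, 7.38 and 7.64 and overlapped, with a difference of −0.11 (−0.31 to 0.08). The efl-1 gene differed by −0.03 (−0.28 to 0.21), while its second probe set fell by 0.28 (adjusted p = 0.0301).

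**Figure D2:**
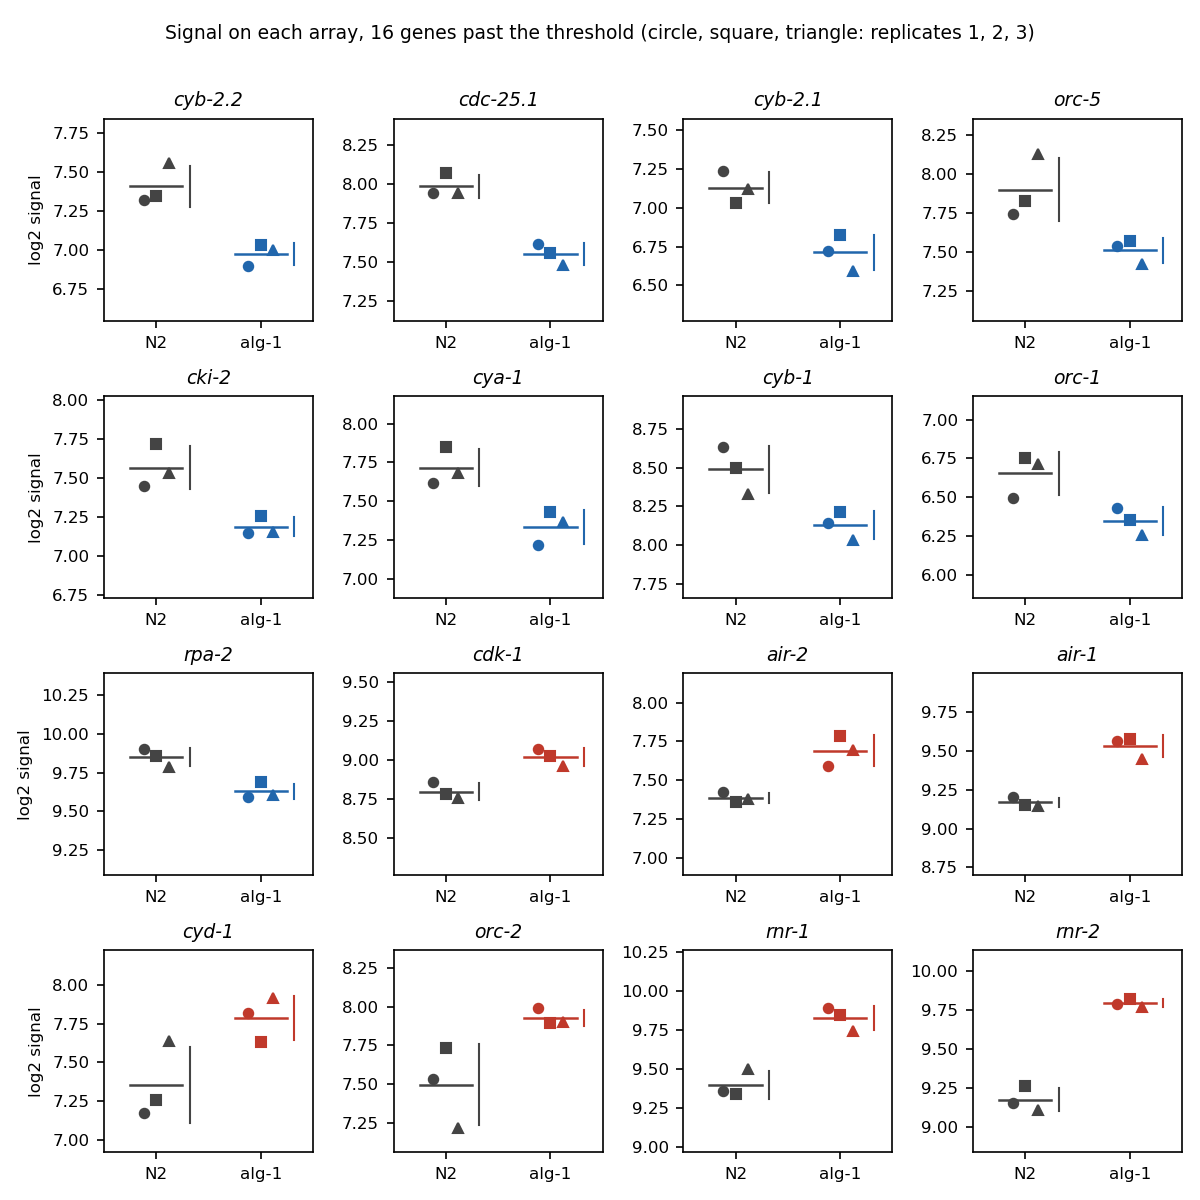
Log2 signal on each array of the 16 genes past the threshold, in N2 (grey) and the alg-1(gk214) mutant (blue where lower, red where higher), with all panels spanning the same range of log2 units. Horizontal lines are group means and vertical lines ± SD (n = 3); symbols mark replicates 1, 2 and 3. The groups overlap only for cyd-1, where wild type replicate 3 (7.64) reaches the lowest mutant value (7.63).

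Across roles, 8 of the 16 called genes stayed called in all 6 fits that left out 1 array. The share of all called genes that did so is not given here, so this count is not read as particular to the members. Among those 8 genes, air-1, cdc-25.1, cyb-2.1, cyb-2.2, rnr-1 and rnr-2 were also called in every other fit testing them at the threshold of 0.05. The remaining pair, cki-2 and cya-1, lost the call with centring on the hybridization controls (adjusted p = 0.0628 and 0.0616), and cya-1 also when only probe sets without the _s_at and _x_at endings were read (adjusted p = 0.0582). Without mutant replicate 3, 5 genes were called lower and 3 higher, and without mutant replicates 1 and 2 in turn 4 were called higher. A smaller share of all genes was also called lower without mutant replicates 1 and 3, as given below beside the further mitosis genes. For the counts of members called higher, the share of all genes in the same fits is not given here. No result about the members is read from these counts.

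For 18 genes the array had more than 1 probe set with that gene as its only symbol. In 13 of these the probe sets gave the same call, 9 of them not passing and 4 passing in the same direction. The 5 with different calls were cya-1, cyb-1, efl-1, orc-2 and orc-5. The orc-2 probe set without a shared ending differed by 0.30 (adjusted p = 0.0901).

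**Figure D3:**
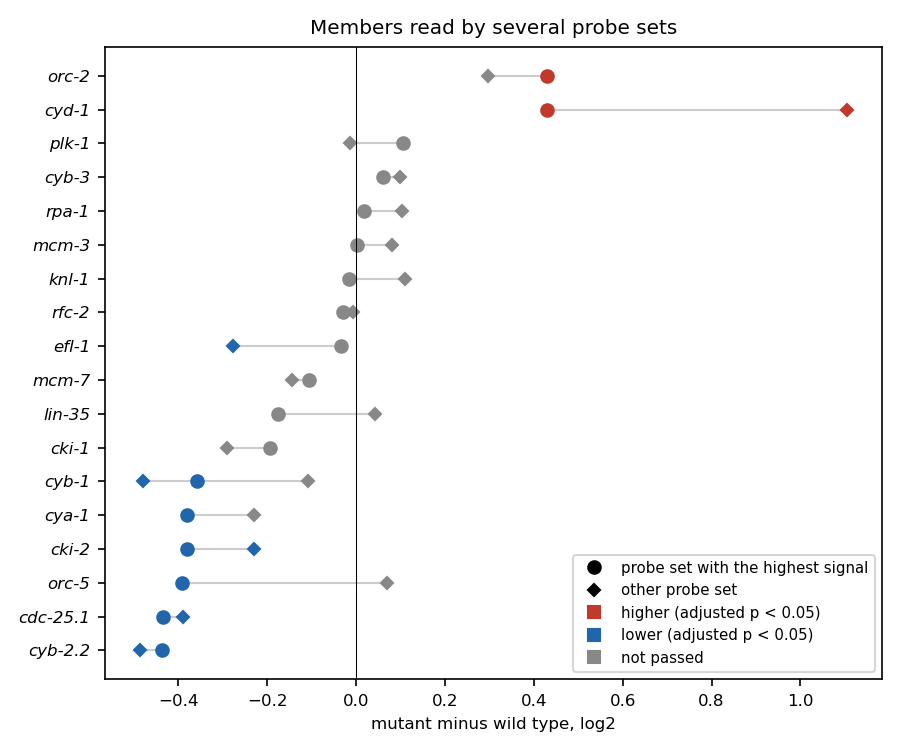
Change (log2, mutant minus wild type) read by each probe set of the 18 genes with several. Circles are the probe sets with the highest signal, used in the text, and diamonds the others; red and blue mark those called higher and lower. The cyd-1 probe sets both rose, by 0.43 and 1.104, and the 3 cyb-1 probe sets lie between −0.48 and −0.11.

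Other genes of the same processes were read from 3 lists that share no gene with the 48. Of 32 measured replication genes, 1 rose and 6 fell, with a median of −0.13 log2. The riser was tyms-1, which encodes thymidylate synthase, the enzyme that makes the thymidine nucleotide. It read 8.41, 8.13 and 8.35 in the mutant and 7.34, 7.34 and 7.52 in N2 and rose by 0.90 (SE 0.094, adjusted p = 0.000144), or 1.87-fold.

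Among the replication genes that fell, polh-1 encodes a DNA polymerase that copies damaged DNA, and it fell by 0.50 (adjusted p = 0.00130). The checkpoint kinase gene chk-1 fell by 0.44 (adjusted p = 0.00402). The tipn-1 gene, related to the fork protection gene Tipin, fell by 0.36 (adjusted p = 0.00427). With the hybridization control centring 2 of the 32 replication genes were called lower, where 10.6% of all genes were. With quantile normalization it was 10 of the 32, where 20.6% of all genes were lower.

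Of 64 further mitosis genes, 4 rose and 15 fell, with a median of −0.11 log2. The smallest p-values were those of sep-1, encoding separase, which cuts cohesin (−0.51, adjusted p = 0.00116), and of ani-1, encoding anillin of the contractile ring (−0.42, adjusted p = 0.00229). Next came klp-18, a kinesin gene of the oocyte meiotic spindle (−0.42, adjusted p = 0.00534), and apc-2, a subunit gene of the anaphase-promoting complex (−0.31, adjusted p = 0.00629).

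Among the 4 risers, and named after their values were seen, were zyg-9 (0.34), mdf-2 (0.25) and spdl-1 (0.24). ZYG-9 promotes microtubule growth, and MDF-2 and SPDL-1 act at the spindle checkpoint and the kinetochore. The count of falls was 4 with the hybridization control centring and 22 with quantile normalization. It was 7 without mutant replicate 1 and 8 without mutant replicate 3, where 14.4% and 14.5% of all genes were lower.

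Of 34 further regulators, 1 rose and 7 fell, with a median of −0.09 log2. The Polo-like kinase genes plk-3 and plk-2 fell by 0.89 (adjusted p = 4.49e-05) and 0.66 (adjusted p = 0.00372), unlike plk-1 among the 48, whose 95% interval was −0.05 to 0.27; that contrast was not tested. The skr-2 gene, related to Skp1 of ubiquitin ligases, fell by 0.70 (adjusted p = 0.000539), and the cyclin H gene cyh-1 fell by 0.51 (adjusted p = 0.00389). The riser, lin-9, was chosen for naming with its value in view. Its product works in the complex that holds LIN-35, and it rose by 0.43 (adjusted p = 0.0101).

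In these 3 lists 18.8%, 23.4% and 20.6% of the genes fell, beside 20.1% of all genes and 26.9% of those above the median of expression. Above that median lay 29 of 32, 62 of 64 and 29 of 34 of the listed genes. Quantile normalization raised the falls to 10 of 32, 22 of 64 and 11 of 34, where 20.6% of all genes were lower. Control centring lowered them to 2, 4 and 5, where 10.6% of all genes were lower. For either fit the share above the median of expression is not given here. In the values as deposited, falls without overlap between the groups were read for 16 of 32, 27 of 64 (42.2%) and 12 of 34 (35.3%). Beside these stand 29.6% of all genes and 36.0% of those above the median of expression. Rises made up 3.13%, 6.25% and 2.94%, below the 14.4% of all genes and the 22.2% of those above the median. No test was made of that.

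Germline and sperm markers had larger median changes than the cell cycle genes, with no test made of that. Over all genes 20.1% were called lower and 14.4% higher, and of those above the median of expression 26.9% and 22.2%. Of 15 germline markers, 11 fell and 0 rose in limma (12 and 0 by an unadjusted p under 0.05), with a median of −0.67 log2, and their summed linear signal was 5977 to 6295 on the mutant arrays and 8604 to 9188 on the wild type arrays. Of 10 sperm markers, 8 fell and 0 rose (8 and 0 unadjusted), with a median of −0.81. Their summed signal was 378 to 409 against 848 to 1225. Among those that fell, gsp-3 and gsp-4 were read from _x_at probe sets and may not be separate measurements. The spe-38 and spe-11 genes, also called lower, were dim, at percentiles 4.9 and 16.2 of expression. Of the 6 measured of 8 seam and epidermis markers, 3 rose and 1 fell, with a summed signal of 4407 to 5074 against 2839 to 3247. The gap in that sum rested on the cuticle collagen gene dpy-7, which rose by 2.21 (adjusted p = 0.000326). Without it the sums were 2309 to 2513 against 2359 to 2581, which overlap. The mean log2 levels without dpy-7 stayed apart, at 8.43 to 8.55 on the mutant arrays against 8.25 to 8.31.

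The other somatic markers moved in part, in short lists. Beside them stand 20.1% of all genes lower and 14.4% higher, or 26.9% and 22.2% above the median of expression. Of 4 intestine markers 2 fell and 0 rose (2 and 1 by an unadjusted p under 0.05), with a summed signal of 8614 to 8820 on the mutant arrays against 10689 to 11490. Of 5 neuron markers 2 rose and 0 fell (3 and 0 unadjusted), with 2894 to 2996 against 2456 to 2536. Of 6 vulva markers 2 rose and 2 fell, with 683 to 705 against 727 to 790. Of 5 body wall muscle markers 0 passed in limma (1 unadjusted), with 13099 to 13355 against 13568 to 14189. Such sums are set largely by the brightest genes of a list. The mean log2 levels of the muscle markers overlapped, at 9.47 to 9.52 on the mutant arrays against 9.31 to 9.55, and their median change was 0.00.

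The summed signal of the 48 genes, by comparison, was 16182 to 16608 on the mutant arrays and 15550 to 16284 on the wild type arrays, which overlap. No marker was at 0, since the array gives a value for every probe set. The part of these marker differences in the changes of single cell cycle genes was not tested.

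Within a group the members' mean levels varied from array to array by role. The mean over the 27 replication genes deviated from its group mean by −0.04, 0.02 and 0.03 log2 on wild type replicates 1, 2 and 3, and by 0.02, 0.01 and −0.03 on mutant replicates 1, 2 and 3. The mean over the 11 mitosis genes deviated by at most 0.04 on any array, on mutant replicate 2. The mean over the 5 G1 and S phase genes varied more, by −0.11, 0.00 and 0.10 on the wild type arrays and by −0.09, 0.03 and 0.06 on the mutant arrays. That over the 5 inhibitor and E2F-Rb genes deviated by at most 0.08 in size, on wild type replicate 3. Sperm markers on the wild type arrays deviated by 0.14, −0.20 and 0.05.

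**Figure D4:**
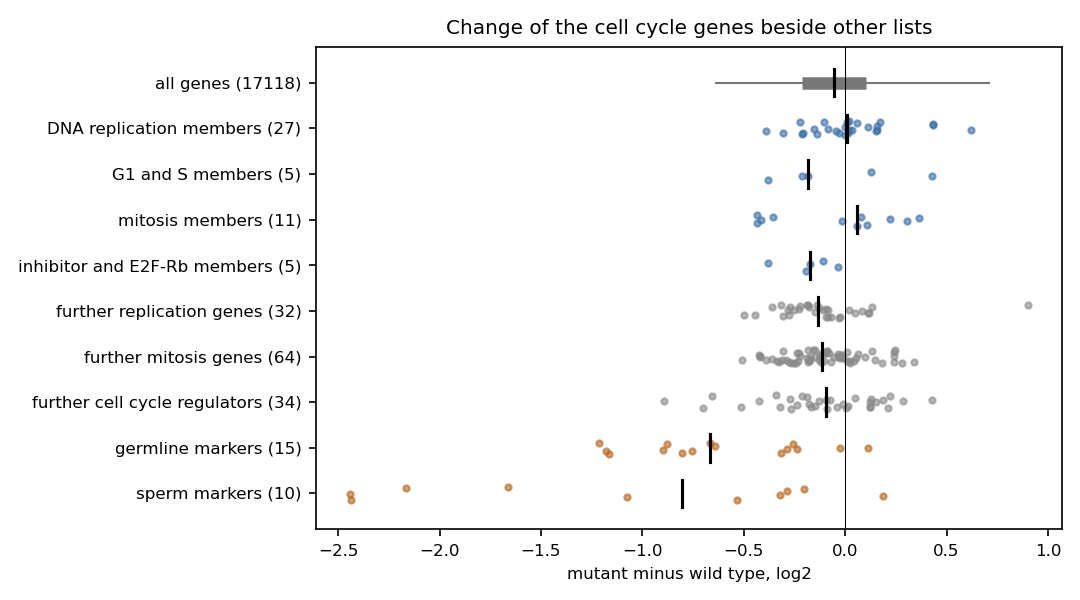
Changes on the log2 scale (mutant minus wild type) of the 48 genes by role (blue), the 3 lists of further genes (grey) and the germline and sperm markers (brown), with 1 point per gene, black bars at the medians and the number of genes in brackets. For all 17118 genes the thick bar spans the 25th to 75th percentile (−0.21 to 0.10) and the thin line the 5th to 95th (−0.64 to 0.71). All 48 cell cycle genes lie inside the thin line, while the germline and sperm medians, at −0.67 and −0.81, lie outside it.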

How the data were processed

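Affymetrix Power Tools made the deposited values, according to the submitters' processing notes: a log2 value for every probe set on every array. Neither the version nor the background and normalization methods are given in those notes. That the authors' values are log2 was read from their range, 3.14 to 14.9, and array medians were 6.01 to 6.05, so they entered the fit as deposited. The labels' protocols give about 5 µg of total RNA per biotin-labelled sample, and the labels call the replicates independent. With arrays no read depth applies, and precision is limited by the 6 arrays.

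From the 22625 probe sets, 77 Affymetrix controls were left out. Of the rest, 20766 had 1 gene symbol in the platform annotation, 887 several and 895 none; 20701 were matched by gene identifier to RefSeq's WBcel235 gene table, used for names and neighbours. For each gene the brightest such probe set, by its mean over the 6 arrays, was used. A further cdk-4 probe set carried several entries and was not used. The genotypes were compared in limma 3.58.1 (R 4.3.3; lmFit, eBayes), two-sided, mutant minus wild type, with Benjamini-Hochberg adjustment over 22548 probe sets and a threshold of 0.05; adjusted p-values come from this fit unless another setting is named beside them. With 3 arrays a side, the smallest p of an exact permutation test is 0.1. Intervals are limma's 95% intervals, not adjusted for the number of genes. The step was tested on simulated data.

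The members and lists were chosen with earlier results of these data known. Every member could be named; array values are given for the 4 with the smallest p in each role and for all that rose, and each further list gave up to 4 names, those with the smallest p, besides risers named after their values were seen. Lists are described by counts and medians, with no test. The alternatives were other scalings, expression filters, priors, array weights, probe set choices, a threshold of 0.01, a replicate block and leaving out each array. Promoter and protein sequences were not used here. One of the further mitosis genes that rose is not reported by name here.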

Additional observations from a re-analysis of the deposited data

How the results depend on the processing

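None of the 16 called members changed direction under any alternative, but 10 of them lost the call at least once. The matching share of all called genes is not given here. Across 742 member values under alternatives, 651 kept their direction and side of the threshold, 40 lost the call, 11 gained one and 40 turned sign, all of the last among genes that did not pass. The cause of these changes was not tested.

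Counts of members called higher and lower, 7 and 9, were 12 and 3 with centring on the hybridization controls, 2 and 4 without _s_at and _x_at probe sets, where fewer genes were read, and 3 and 4 at a threshold of 0.01. Leaving out 1 array gave 3 to 8 higher and 5 to 9 lower. The 7591 probe sets called became 4715 without those endings, 4767 at 0.01 and 5443 to 7833 without 1 array; 44.0% of the calls were higher, and 68.8% with control centring. Further genes called lower numbered 6 for replication, 15 for mitosis and 7 for regulators. These were 10, 22 and 11 with quantile normalization, 2, 4 and 5 with control centring, 2, 5 and 4 without those endings, 3, 7 and 7 at 0.01, and 3 to 7, 7 to 16 and 7 to 9 without 1 array. Beside the counts without those endings, at 0.01 and without 1 array, no share of all genes is given here. Those counts therefore do not show whether the members or the further genes followed all genes.

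The median change of replication members, 0.008, was −0.030 with quantile normalization, −0.020 with array weights, −0.029 without those endings, 0.14 with control centring and −0.021 to 0.030 without 1 array. That of mitosis members, 0.061, was 0.025 with quantile normalization, 0.19 with control centring, 0.098 without those endings and 0.012 to 0.076 without 1 array.

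Members that did not pass turned sign as follows. Control centring gave 0.023 for dpl-1, 0.10 for efl-1, 0.12 for knl-1, 0.089 for mcm-6, 0.027 for mcm-7, 0.049 for psf-1 and 0.10 for rfc-2. Quantile normalization gave −0.030 for cdc-6, −0.040 for mcm-3, −0.022 for rpa-1 and −0.030 for rpa-4. Array weights gave −0.015 for cdc-6, −0.031 for mcm-3, −0.021 for orc-3 and −0.069 for rpa-4. Without those endings knl-1 was 0.11 and lin-35 0.043, and averaging its probe sets put knl-1 at 0.048. Without 1 array the ranges were −0.036 to 0.052 for cdc-6, −0.064 to 0.18 for cyb-3, −0.14 to 0.049 for efl-1, −0.049 to 0.012 for knl-1, −0.041 to 0.043 for mcm-3 and −0.11 to 0.039 for mcm-6. They were −0.041 to 0.031 for orc-3, −0.045 to 0.098 for orc-4, −0.25 to 0.0051 for psf-2, −0.0038 to 0.033 for psf-3, −0.11 to 0.053 for rfc-2, −0.0018 to 0.036 for rpa-1 and −0.057 to 0.11 for rpa-4.

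Whether replicate numbers pair the arrays was not settled. Deviations of same-numbered arrays correlated at 0.21, 0.13 and 0.081, and those of differently numbered arrays at −0.20 to 0.10. Wild type replicate 3 correlated best with mutant replicate 2 (0.10). With replicate number as a block, 7766 probe sets, 8 members lower and 7 higher were called.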
